A study of Homo sapiens with 8 samples.

Results

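The genes described here encode plasma proteins that hepatocytes make and secrete, from albumin and transferrin to the fibrinogen chains, apolipoproteins, complement C3 and factor B, and coagulation factors. They were taken from a list of 33 such genes, which was chosen with earlier results of these data known. Of the 33, 30 carried a symbol in the annotation of the array and were measured, among 14884 symbols in all. SERPINA1 (alpha-1-antitrypsin), RBP4 (retinol-binding protein) and ITIH4 were not analysed here. Their RNA was measured in 2 established human cell lines with whole-transcript arrays from Affymetrix. HepG2 comes from a liver tumour, and LX2 from hepatic stellate cells, the liver pericytes that deposit matrix after injury. The groups were HepG2 with 400 nM CM272, HepG2 with 0.1% DMSO vehicle (control), LX2 with 400 nM CM272 and LX2 with 0.1% DMSO vehicle (control). All groups were treated for 48 h and had 2 arrays each, which is the n of every value. CM272 inhibits G9a, which writes the repressive H3K9 methylation, together with DNMT1, which copies DNA methylation after replication, and the study asked how blocking both at once changes transcription in each cell type. HepG2 received CM272 in medium with 10% fetal bovine serum and LX2 in medium with 2%, so line and serum cannot be told apart. Each line is a single established culture, and whether a group's arrays stem from separate cultures is not given in the labels, so p-values measure the spread between arrays, which may be technical.

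Hepatocytes release most plasma proteins through the endoplasmic reticulum and Golgi, without storing them. Transcription of their genes in liver depends on factors such as HNF1, HNF4, C/EBP and FOXA proteins. In the acute-phase response, interleukin-6 acting through STAT3 raises haptoglobin, hemopexin, the fibrinogen chains and complement factors, while albumin, transthyretin and transferrin fall. Liver tumour cells can also make alpha-fetoprotein, the fetal counterpart of albumin.

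Values are log2 expression values, and a difference of 1 is a 2-fold change. Array medians over all probe sets lay between 4.19 and 4.54, and the upper quartile lay at 5.70 to 5.73 on HepG2 arrays against 5.97 to 5.99 on LX2 arrays. Replicate arrays correlated across genes, which are not independent replicates, at r = 0.988 (HepG2 CM272), 0.991 (HepG2 control), 0.978 (LX2 CM272) and 0.993 (LX2 control). The LX2 CM272 arrays stood furthest apart, and 26 of the 30 plasma protein genes were higher on replicate 1 than on replicate 2 there, by a median of 0.17 log2 against 0.03 over all symbols. In HepG2 control 6 of the 30 were higher on replicate 1 (median -0.12, against 0.00 over all symbols). In HepG2 CM272 8 were (-0.07, against -0.02), and in LX2 control 14 (-0.08, against 0.01). Hepatocyte identity was checked on ASGR1, a liver galactose-binding receptor, at 9.23 and 9.35 on HepG2 CM272 arrays and 9.24 and 9.33 on HepG2 control arrays, against 5.58 and 5.51 on LX2 CM272 arrays and 5.51 and 5.40 on LX2 control arrays. Of 18 listed hepatocyte enzymes 5 were measured, and 3 were higher in HepG2 control than in LX2 control (limma, adjusted p under 0.05), against 16% of all symbols. FAH (0.30, adjusted p = 0.108) and PCK1 (0.50, adjusted p = 0.0868) did not pass. Of 20 listed stellate markers 13 were measured. In HepG2 control 2 were higher and 7 lower than in LX2 control (limma, adjusted p under 0.05), against 2379 and 5178 of all 14884 symbols. VIM (the mesenchymal filament vimentin) for one lay at 3.73 and 3.60 in HepG2 control against 10.16 and 10.22 in LX2 control. RELN lay the other way, at 11.03 and 11.12 in HepG2 control against 4.59 and 4.77 in LX2 control.

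Promoter sequence was available from RefSeq (GRCh38.p14) for 22 of the 30 measured genes, in 28 windows of 300 bases that run from 250 bases before to 50 bases after a transcription start. Shown here are the 250 bases upstream of 6 genes the results turn on: ALB and AFP, which are adjacent genes on chromosome 4, FGA and FGG, neighbours in the fibrinogen cluster of chromosome 4, and HPX and CFB, which had some of the larger CM272 values. Each runs 5′ to 3′ on the gene's strand, at chr4:73404037-73404286 (ALB, plus strand), chr4:73435971-73436220 (AFP, plus), chr4:154590743-154590992 (FGA, minus), chr4:154612657-154612906 (FGG, minus), chr11:6440988-6441237 (HPX, minus) and chr6:31945845-31946094 (CFB, plus). Capitals mark letters of 4 searched motifs, the HNF1 site GTTAAT, the C/EBP site TTGCNNAA, the STAT site TTCNNNGAA and the TATA box TATAAA, each on either strand.
ALB: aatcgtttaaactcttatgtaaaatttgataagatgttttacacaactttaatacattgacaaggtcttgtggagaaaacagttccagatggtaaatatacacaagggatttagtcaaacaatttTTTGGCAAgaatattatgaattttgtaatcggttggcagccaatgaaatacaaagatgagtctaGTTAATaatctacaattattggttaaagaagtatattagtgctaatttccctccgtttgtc
AFP: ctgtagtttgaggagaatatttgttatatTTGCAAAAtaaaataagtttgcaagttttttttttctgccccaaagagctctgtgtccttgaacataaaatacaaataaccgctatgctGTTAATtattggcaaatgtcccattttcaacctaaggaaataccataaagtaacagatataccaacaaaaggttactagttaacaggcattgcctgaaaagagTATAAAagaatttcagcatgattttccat
FGA: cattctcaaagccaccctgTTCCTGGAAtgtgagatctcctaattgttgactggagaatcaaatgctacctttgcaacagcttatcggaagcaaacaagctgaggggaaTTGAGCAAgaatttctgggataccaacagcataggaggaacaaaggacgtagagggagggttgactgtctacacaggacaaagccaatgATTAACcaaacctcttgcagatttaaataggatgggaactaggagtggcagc
FGG: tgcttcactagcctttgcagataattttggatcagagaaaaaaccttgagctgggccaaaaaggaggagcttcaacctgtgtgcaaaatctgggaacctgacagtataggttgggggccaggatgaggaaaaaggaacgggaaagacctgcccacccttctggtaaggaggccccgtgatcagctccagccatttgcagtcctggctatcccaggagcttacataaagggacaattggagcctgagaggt
HPX: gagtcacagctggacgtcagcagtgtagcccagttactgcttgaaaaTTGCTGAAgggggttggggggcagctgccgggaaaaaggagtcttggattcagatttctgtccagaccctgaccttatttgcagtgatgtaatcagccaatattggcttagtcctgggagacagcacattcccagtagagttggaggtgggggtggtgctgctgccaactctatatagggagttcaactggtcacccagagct
CFB: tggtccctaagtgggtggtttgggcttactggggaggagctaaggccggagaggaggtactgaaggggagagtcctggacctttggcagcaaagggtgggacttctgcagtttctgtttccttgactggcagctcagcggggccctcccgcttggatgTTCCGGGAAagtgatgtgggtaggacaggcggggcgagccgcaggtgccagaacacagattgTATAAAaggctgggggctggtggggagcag
The ALB stretch holds C/EBP letters from position -125 and the HNF1 site from position -61, counted from the start site. The AFP stretch holds the same pair from positions -221 and -132, and TATAAA from position -29. The FGA stretch holds STAT letters from position -231, C/EBP letters from -141 and the HNF1 site from -52, while the FGG stretch, from the same gene cluster, has none of the motifs. CFB has STAT letters from position -92 and TATAAA from -30, and HPX has C/EBP letters from -203.

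Over all 28 windows, C/EBP letters stood in 42.9% (11 genes), against 10.5% of 35114 promoter windows of the same length. The HNF1 site stood in 28.6% (AFP, ALB, APOH, F2, FGA, FGB and PROC), against 6.88% of all windows, and STAT letters in 21.4% (A1BG, CFB, F10, F9, FGA and VTN), against 7.66%. The FOXA letters TGTTTAC were in 7.14% of the plasma protein windows against 3.42% of all, and the HNF4 letters CAAAGNCCA in 7.14% against 1.59%, which is 2 windows each. TATAAA stood in 10.7% against 11.5%. The plasma protein windows held few CG pairs, the sites that DNMT1 keeps methylated, with a median of 4 (0 to 36) against 14 (0 to 77) in all windows. At least 10 CG pairs were present in 17.9% of them against 56.4% of all. Their median GC content was 53.2% against 58.7%, and the motif shares were not matched for base composition. These are matches of letters, with no binding or methylation measured in this study, and windows of 1 gene can overlap.

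**Figure D1:**
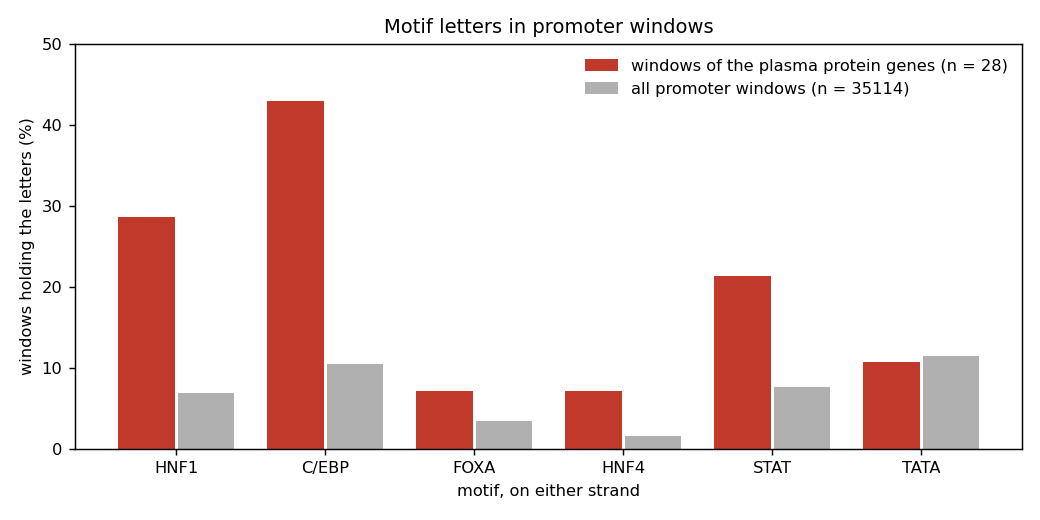
Share of promoter windows (y axis, %) that hold each motif's letters on either strand (x axis), for the 28 windows of the plasma protein genes (red) and all 35114 windows (grey). C/EBP, HNF1 site and STAT letters stood in a larger share of the plasma protein windows, and TATAAA in a similar one (10.7% against 11.5%).

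The plasma protein genes separated the untreated lines. In control arrays, 29 of the 30 were higher in HepG2 than in LX2 at an adjusted p under 0.05 (limma, Benjamini-Hochberg over 14884 symbols), against 16% of all symbols. Their median difference was 5.02 log2 (range -0.23 to 10.42), against -0.21 over all symbols. The difference was over 8 log2 for 10 genes, A2M, AFP, AHSG, ALB, APOA2, APOB, APOH, FGA, FGG and ITIH2, and it was between 4 and 8 for 7 more, AMBP, C3, F2, FGB, PROC, TF and TTR. The largest was that of APOH, beta-2-glycoprotein I, a phospholipid-binding protein, at 12.87 and 12.93 in HepG2 control against 2.56 and 2.39 in LX2 control (10.42, SE 0.15, limma adjusted p = 3.22e-10). Such levels are means over all cells of a culture, so fewer expressing cells and less RNA per cell cannot be told apart.

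The gap between the lines was smaller for 11 genes, between 1 and 4 log2: A1BG, APOA1, APOC3, CFB, F10, FETUB, HP, HPX, ITIH3, KNG1 and VTN. F9, the vitamin K-dependent clotting factor IX, gave 2.76 and 2.72 in HepG2 control against 2.23 and 1.83 in LX2 control. That difference of 0.71 (SE 0.21) passed at a limma adjusted p = 0.0196 and no longer passed without LX2 control replicate 2 (0.152) or without HepG2 control replicate 1 (0.0803) or 2 (0.0689). ITIH1, a heavy chain of the inter-alpha-trypsin inhibitors, was the only measured gene of the list that did not separate the lines, at 4.07 and 4.52 in HepG2 control against 4.71 and 4.34 in LX2 control (-0.23, SE 0.30, adjusted p = 0.54). Its relatives did: ITIH2 gave 12.77 and 12.58 in HepG2 control against 3.71 and 3.96 in LX2 control, and ITIH3, next to ITIH1 on chromosome 3, gave 7.41 and 7.33 against 3.49 and 3.95.

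**Figure D2:**
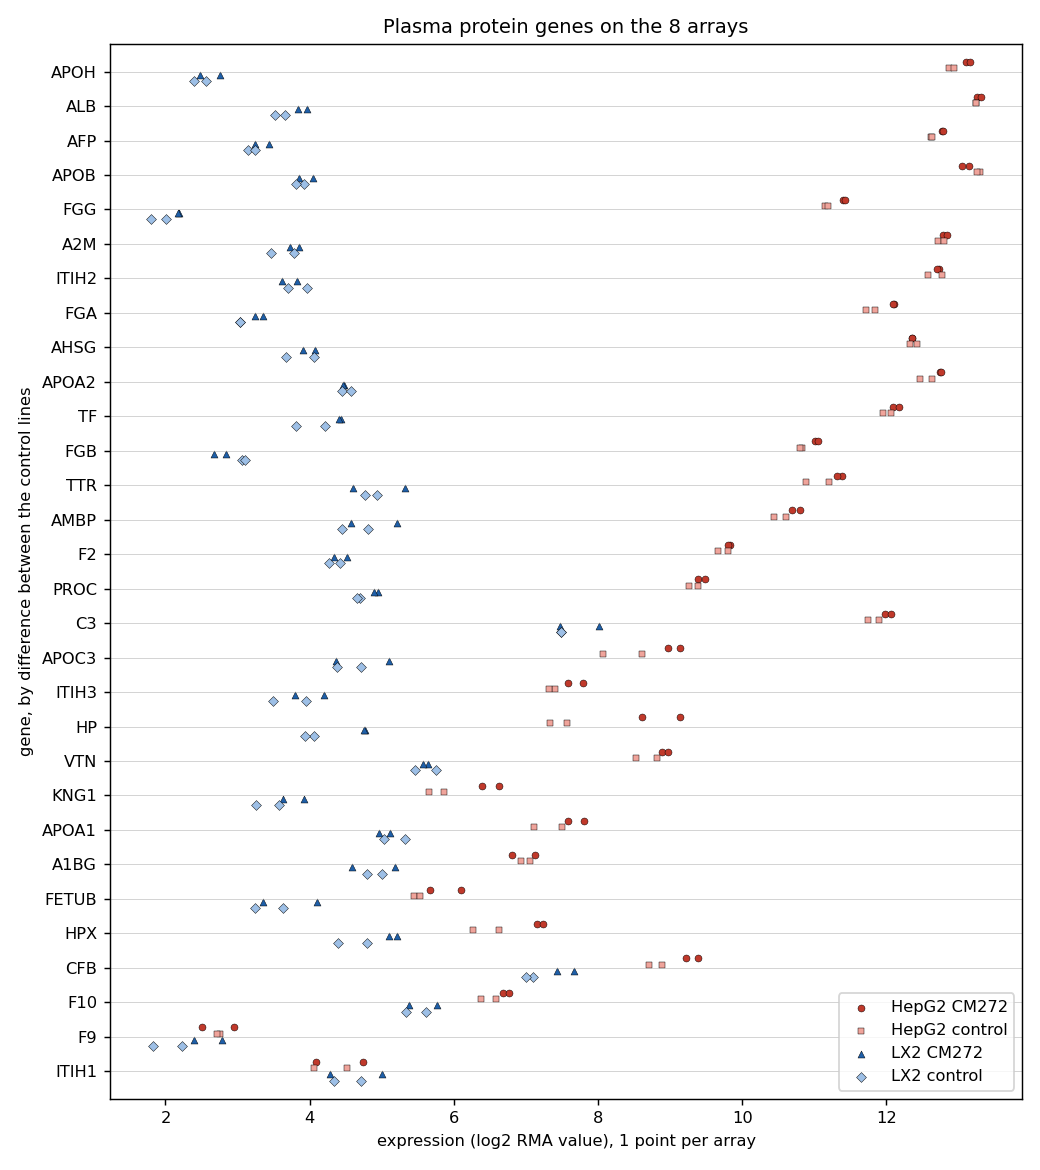
Expression of the 30 plasma protein genes (rows, ordered by the difference between the control lines) on the 8 arrays (x axis, log2 value, 1 point per array), with HepG2 in red and LX2 in blue, CM272 dark and control light. HepG2 points lie right of all LX2 points in every row except F9 and ITIH1 at the foot, where the lines overlap.

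In HepG2 treated with CM272, no plasma protein gene changed past the threshold: 0 of 30 passed in either direction (limma, adjusted p 0.146 to 0.995), against 0.0134% of all symbols, which is 2 of 14884. At an unadjusted p under 0.05, 6 of the 30 (20%) were higher and 0 lower, HP, HPX, KNG1, APOC3, CFB and FGA, against 10.1% of all symbols in either direction. Both CM272 arrays lay over both control arrays for 21 of the 30 genes (70%), against 20.8% of all symbols, and under them for APOB alone, against 25.4% of all symbols. The genes also shifted together between the replicate arrays of each HepG2 group, so they are not separate results. The median difference was 0.22 log2 (range -0.18 to 1.42), against -0.01 over all symbols, and 26 of the 30 differences were positive. It stayed between 0.14 and 0.28 when any 1 array was left out. For 26 of the 30 genes the 95% interval of the difference lay within a 2-fold change either way, the others being HP, HPX, KNG1 and APOC3.

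In LX2, where most of these genes are dim, CM272 also gave 0 of 30 past the threshold (limma, adjusted p 0.0555 to 0.995), against 5.11% of all symbols. At an unadjusted p under 0.05, 6 were higher (HP, HPX, CFB, F9, TF and ALB) and FGB was lower, 23.3% of the list against 21.8% of all symbols in either direction. Both CM272 arrays lay over both control arrays for 10 genes (33.3%), against 23.8% of all symbols, and under them for FGB alone, against 25.4%. The median difference was 0.18 log2 (range -0.33 to 0.76), against 0.00 over all symbols, and 24 of 30 were positive. This median rested on 1 array: leaving out LX2 CM272 replicate 1 gave 0.02, and leaving out LX2 CM272 replicate 2 gave 0.29. With an array left out, 1 array is set against 2 and overlap is rarer for every symbol. The count with CM272 over control was then 23 without LX2 CM272 replicate 2, against 45.1% of all symbols, and 18 without LX2 control replicate 2, against 32.7%. It was 14 without LX2 control replicate 1, against 34.1%, and only 12 of the 30 without LX2 CM272 replicate 1, against 36.5%. The count under control was 8 without LX2 CM272 replicate 1, against 43.7% of all symbols. Both LX2 CM272 arrays exceeded a log2 value of 4 for 16 of the 30 genes, against 14 in LX2 control, and 6 for C3 and CFB alone.

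ALB, TF, FGA, FGG, HP, HPX, CFB and KNG1 were the 8 genes with CM272 arrays over control arrays without overlap in both lines, which have separate controls, against 5.62% of all symbols. The HepG2 difference was only 0.04 log2 for ALB and 0.12 for TF, and a second KNG1 probe set overlapped in HepG2. The difference between the lines in the CM272 effect passed for 0 of 30 genes (limma, adjusted p 0.239 to 0.999), against 0.531% of all symbols. At an unadjusted p under 0.05 the effect was higher in HepG2 for 2 genes, HP and FGB, against 15% of all symbols in either direction. The median of this difference was 0.03 log2 (range -0.57 to 0.66), against 0.00 over all symbols.

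**Figure D3:**
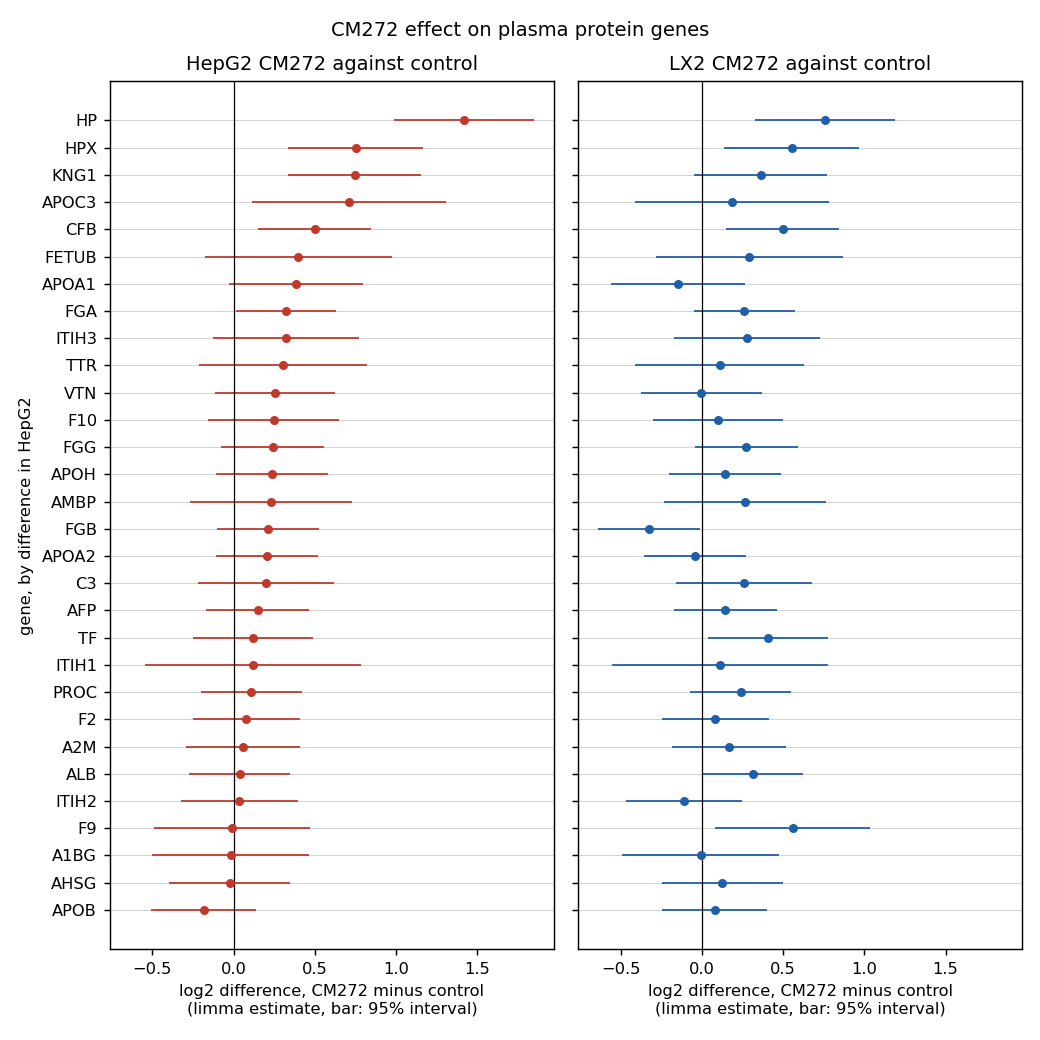
CM272 minus control difference (x axis, log2) of the 30 plasma protein genes (rows, ordered by the HepG2 value) in HepG2 (left, red) and LX2 (right, blue); points are limma estimates and bars 95% intervals that are not adjusted for the number of genes. HP had the highest estimate in both lines, 1.42 in HepG2 and 0.76 in LX2, and the bars of most other genes include 0.

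Among the carriers, HP showed the largest difference of the list in both lines. HP encodes haptoglobin, which binds free hemoglobin. It gave 8.60 and 9.14 on HepG2 CM272 arrays, against 7.33 and 7.57 on HepG2 control arrays, and 4.77 and 4.75 on LX2 CM272 arrays, against 4.06 and 3.94 on LX2 control arrays. All CM272 arrays lay above the controls of their line, with no overlap. The difference was 1.42 log2 in HepG2 (2.67-fold, 95% interval 0.99 to 1.85, limma adjusted p = 0.146) and 0.76 in LX2 (1.69-fold, 0.33 to 1.19, adjusted p = 0.0555). HP passed where dim symbols were left out: in LX2 with symbols over a log2 value of 4 (adjusted p = 0.0388), and in both lines with symbols over 6 (0.0387 in HepG2, 0.0191 in LX2). A symbol was kept if both arrays of any 1 group exceeded the level. HP was thus kept over 6 through its HepG2 arrays alone, and its own LX2 values are dim. HP also passed with an intensity trend in the variance (0.0316 in HepG2, 0.0288 in LX2). Over all 18 alternatives its adjusted p ran between 0.0316 and 0.77 in HepG2 and between 0.0191 and 0.293 in LX2, while the difference stayed at 1.15 to 1.68 and 0.66 to 0.82. HPR, the haptoglobin-related gene, is a near-identical copy of HP and was looked at after the values were seen. It gave 6.27 and 6.76 in HepG2 CM272 against 5.10 and 6.19 in HepG2 control, and 3.45 and 2.83 in LX2 CM272 against 2.93 and 2.80 in LX2 control. How far probes of one gene also read the other was not tested.

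HPX encodes hemopexin, which binds free heme. It gave 7.15 and 7.24 in HepG2 CM272, against 6.26 and 6.62 in HepG2 control, and 5.21 and 5.09 in LX2 CM272, against 4.80 and 4.40 in LX2 control. The CM272 arrays were again the higher ones in both lines, by 0.75 log2 in HepG2 (95% interval 0.33 to 1.17, adjusted p = 0.296) and 0.55 in LX2 (0.14 to 0.97, adjusted p = 0.122), neither past the threshold in limma or in any alternative.

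ALB encodes albumin, the main protein of plasma. It gave 13.25 and 13.31 in HepG2 CM272, against 13.24 and 13.25 in HepG2 control, and 3.96 and 3.84 in LX2 CM272, against 3.52 and 3.65 in LX2 control. HepG2 arrays were thus nearly level, and the interval of the difference in HepG2 reached from -0.27 to 0.35 log2 around an estimate of 0.04. In LX2 the estimate was 0.31 (0.00 to 0.63, adjusted p = 0.227) at levels under 4. AFP, its neighbour and the fetal serum protein used as a tumour marker, gave 12.77 and 12.78 in HepG2 CM272, against 12.62 and 12.64 in HepG2 control, and 3.24 and 3.44 in LX2 CM272, against 3.14 and 3.25 in LX2 control. The CM272 arrays were the higher pair in HepG2 and overlapped the controls in LX2, with differences of 0.15 (-0.17 to 0.47) and 0.14 (-0.17 to 0.46).

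TTR encodes transthyretin, which carries thyroxine and retinol-binding protein. It gave 11.39 and 11.31 in HepG2 CM272, against 10.89 and 11.20 in HepG2 control, and 5.32 and 4.60 in LX2 CM272, against 4.76 and 4.94 in LX2 control. The HepG2 groups did not overlap, while in LX2 1 CM272 array lay above and the other below both controls. The differences were 0.31 (-0.21 to 0.82) and 0.11 (-0.41 to 0.63). TF, the iron carrier transferrin, gave 12.09 and 12.17 in HepG2 CM272, against 11.95 and 12.07 in HepG2 control, and 4.43 and 4.41 in LX2 CM272, against 3.82 and 4.21 in LX2 control. Both lines had CM272 arrays over controls, by 0.12 (-0.25 to 0.49, adjusted p = 0.864) in HepG2 and 0.41 (0.04 to 0.78, adjusted p = 0.187) in LX2. A1BG, a plasma glycoprotein of the immunoglobulin superfamily, overlapped between CM272 and control in both lines, with estimates of -0.02 in HepG2 and -0.01 in LX2.

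The apolipoproteins form the protein coat of lipoprotein particles. APOA1, the main protein of high-density lipoprotein, gave 7.58 and 7.80 in HepG2 CM272, against 7.11 and 7.50 in HepG2 control, and 5.11 and 4.96 in LX2 CM272, against 5.33 and 5.04 in LX2 control. The HepG2 CM272 arrays were the higher ones and the LX2 groups overlapped, with differences of 0.39 (-0.03 to 0.80, adjusted p = 0.521) and -0.15 (-0.56 to 0.27, adjusted p = 0.704). APOC3, the adjacent gene on chromosome 11 and an inhibitor of triglyceride clearance, gave 8.97 and 9.13 in HepG2 CM272, against 8.06 and 8.61 in HepG2 control, and 5.10 and 4.36 in LX2 CM272, against 4.38 and 4.71 in LX2 control. It showed the same order of groups as APOA1 in HepG2 (0.71, 95% interval 0.11 to 1.31, adjusted p = 0.426), and the LX2 groups overlapped (0.19).

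APOB, the scaffold of very-low-density and low-density lipoproteins, was the only gene of the list with HepG2 CM272 arrays below the controls. It gave 13.15 and 13.05 in HepG2 CM272, against 13.30 and 13.26 in HepG2 control, and 4.04 and 3.85 in LX2 CM272, against 3.92 and 3.81 in LX2 control. The HepG2 difference of -0.18 (-0.51 to 0.14, adjusted p = 0.714) was small beside its interval. APOA2, a second protein of high-density lipoprotein, and APOH lay higher in HepG2 CM272 without overlap, by 0.20 (-0.11 to 0.52) and 0.24 (-0.11 to 0.58). In LX2 all 5 apolipoprotein genes overlapped between CM272 and control.

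FGA, FGB and FGG encode the alpha, beta and gamma chains of fibrinogen, which thrombin turns into the fibrin of a clot, and lie side by side on chromosome 4. FGA gave 12.11 and 12.09 in HepG2 CM272, against 11.71 and 11.84 in HepG2 control, and 3.24 and 3.35 in LX2 CM272, against 3.04 and 3.03 in LX2 control. FGB gave 11.01 and 11.05 in HepG2 CM272, against 10.84 and 10.81 in HepG2 control, and 2.67 and 2.85 in LX2 CM272, against 3.06 and 3.11 in LX2 control. FGG gave 11.40 and 11.43 in HepG2 CM272, against 11.15 and 11.20 in HepG2 control, and 2.18 and 2.17 in LX2 CM272, against 1.80 and 2.01 in LX2 control. All 3 chains were thus higher with CM272 in HepG2 without overlap, whereas in LX2 FGA and FGG were higher and FGB lower. The HepG2 differences were 0.32 (0.01 to 0.63) for FGA, 0.21 (-0.10 to 0.52) for FGB and 0.24 (-0.08 to 0.56) for FGG, and none passed in limma (adjusted p 0.479 to 0.653). In LX2 they were 0.26 (-0.05 to 0.57), -0.33 (-0.64 to -0.01) and 0.27 (-0.04 to 0.59) at levels under 4 (adjusted p 0.21 to 0.316). The effect of CM272 on FGB was higher in HepG2 than in LX2 by 0.54 (0.10 to 0.98), which did not pass over all symbols (adjusted p = 0.239).

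C3 and CFB encode complement C3, on which all complement pathways converge, and factor B, the protease of the alternative pathway. These 2 genes were the ones whose LX2 levels exceeded 6 on all arrays. C3 gave 11.98 and 12.06 in HepG2 CM272, against 11.75 and 11.89 in HepG2 control, and 8.01 and 7.47 in LX2 CM272, against 7.48 and 7.48 in LX2 control. The HepG2 groups did not overlap, and in LX2 only replicate 1 of CM272 stood above the controls, so the differences were 0.20 (-0.22 to 0.62) and 0.26 (-0.16 to 0.68). CFB gave 9.22 and 9.38 in HepG2 CM272, against 8.71 and 8.89 in HepG2 control, and 7.66 and 7.43 in LX2 CM272, against 7.09 and 7.003 in LX2 control. Every CM272 array exceeded both controls of its line, and the estimate was 0.50 log2 (1.41-fold) in each, with intervals of 0.15 to 0.85 in both. The limma adjusted p was 0.363 in HepG2 and 0.0968 in LX2. In LX2 it passed with symbols over 6 (0.0346), with an intensity trend (0.0399) and without LX2 CM272 replicate 2 (0.0455), in a range of 0.0346 to 0.391 over all alternatives.

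**Figure D4:**
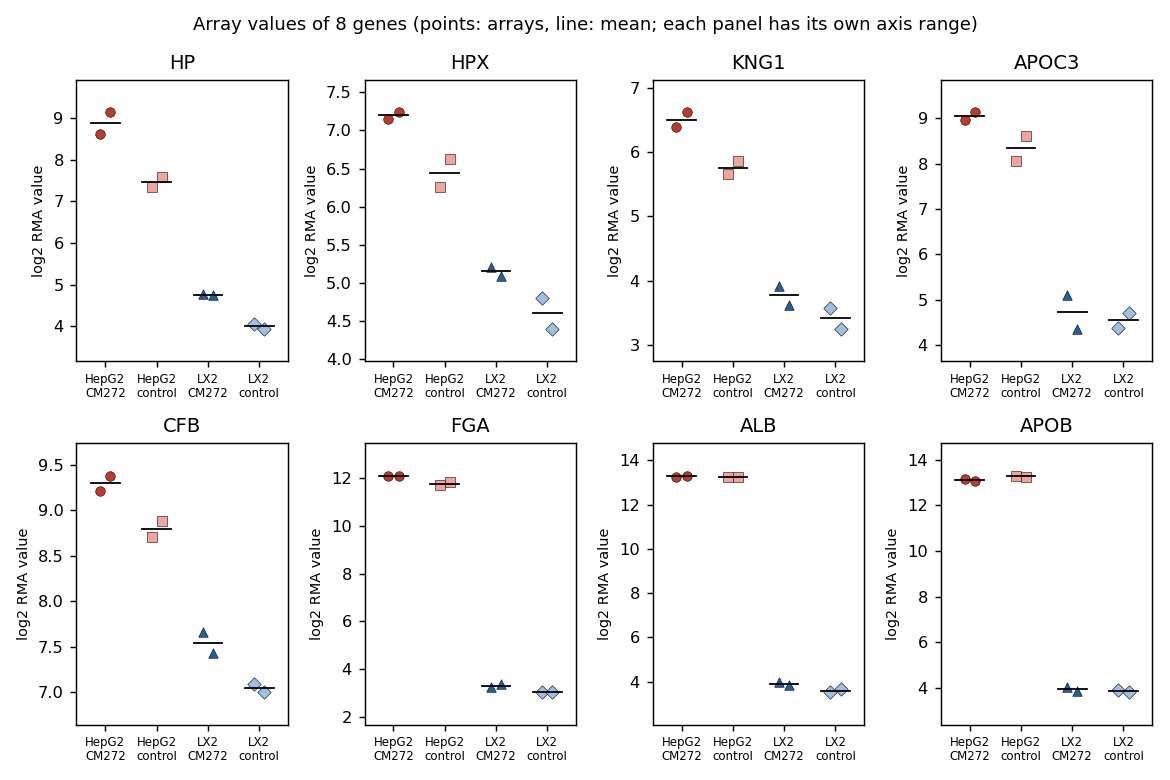
Values on each array (y axis, log2, each panel with its own range) of HP, HPX, KNG1, APOC3, CFB, FGA, ALB and APOB in HepG2 CM272, HepG2 control, LX2 CM272 and LX2 control (x axis); points are arrays and lines group means. HP at 8.60 and 9.14 in HepG2 CM272 against 7.33 and 7.57 in HepG2 control shows the widest gap, and APOB is the panel with HepG2 CM272 below control.

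Of the clotting and kinin genes, KNG1, which encodes the kininogens that release bradykinin, gave 6.39 and 6.62 in HepG2 CM272, against 5.65 and 5.86 in HepG2 control, and 3.92 and 3.62 in LX2 CM272, against 3.57 and 3.25 in LX2 control. The CM272 arrays were the higher ones in both lines, by 0.75 (0.34 to 1.16, adjusted p = 0.296) and 0.36 (-0.05 to 0.77, adjusted p = 0.289). A second, dimmer probe set of KNG1 did not follow it in HepG2, at 4.12 and 4.88 with CM272 against 4.37 and 4.25 in control, and lay at 4.50 and 4.07 in LX2 CM272 against 3.95 and 3.91 in LX2 control. F2, prothrombin, and PROC, the anticoagulant protein C, overlapped between CM272 and control in HepG2, with differences of 0.08 (-0.25 to 0.41) and 0.11 (-0.20 to 0.42). F10, the factor that converts prothrombin to thrombin, gave 6.68 and 6.77 in HepG2 CM272 against 6.38 and 6.58 in HepG2 control, a difference of 0.25 (-0.16 to 0.65). F9, dim in both lines, gave 2.95 and 2.50 in HepG2 CM272 against 2.76 and 2.72 in HepG2 control, and 2.78 and 2.40 in LX2 CM272 against 2.23 and 1.83 in LX2 control. Its LX2 arrays did not overlap (0.56, 0.08 to 1.04, adjusted p = 0.166), and it was the 1 measured gene of the list that no group held over a log2 value of 4 on both arrays.

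The inhibitors and matrix-binding proteins had HepG2 differences of -0.02 to 0.40. A2M, the broad protease trap alpha-2-macroglobulin, gave 12.78 and 12.84 in HepG2 CM272 against 12.71 and 12.79 in HepG2 control (0.06, -0.29 to 0.41). AHSG, fetuin-A, which keeps calcium phosphate in solution, gave 12.35 on both HepG2 CM272 arrays against 12.33 and 12.42 in HepG2 control (-0.02, -0.40 to 0.35). Both overlapped, as did ITIH1 (0.12) and ITIH2 (0.04). FETUB, fetuin-B, an inhibitor of astacin proteases and the gene next to AHSG on chromosome 3, gave 5.67 and 6.10 in HepG2 CM272 against 5.45 and 5.53 in HepG2 control, without overlap (0.40, -0.18 to 0.97). The other 3 with HepG2 CM272 arrays over controls were AMBP, the precursor of alpha-1-microglobulin and bikunin (0.23, -0.27 to 0.73), ITIH3 (0.32, -0.13 to 0.77) and VTN, the cell-adhesive protein vitronectin (0.25, -0.12 to 0.62). In LX2 all 8 measured genes of this kind overlapped between CM272 and control, with differences of -0.11 to 0.29.

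Of 15 listed genes of acute-phase signalling, the receptors, kinases and factors that carry it, 11 were measured, and 8 of the 11 differences were negative in each line. In HepG2 none passed (limma, median -0.16, unadjusted p under 0.05 for 0 higher and 2 lower genes), where IL6R, the interleukin-6 receptor, gave 6.99 and 6.77 with CM272 against 7.71 and 7.19 in control (-0.57, adjusted p = 0.407). NFKB1, a subunit of NF-kB, gave 7.97 and 7.81 with CM272 against 8.27 and 8.35 in control (-0.42, adjusted p = 0.426). In LX2, OSMR, the receptor chain for oncostatin M, fell (9.32 and 9.20 with CM272 against 9.88 and 9.97 in control, -0.67, SE 0.14, adjusted p = 0.0354), as the only one past the threshold. STAT3, the factor that carries the interleukin-6 signal, differed by 0.10 in HepG2 (-0.21 to 0.42) and -0.18 in LX2 (-0.49 to 0.14). Over all symbols, 10.1% in HepG2 and 21.8% in LX2 had an unadjusted limma p under 0.05, and 0.0134% and 5.11% passed. These shares stand beside the counts of this list and of the lists below.

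Of 28 listed liver transcription factors, 14 were measured, and none passed in either line (limma, unadjusted p under 0.05 for 3 higher genes and 1 lower gene in each). The 14 held FOXA1, FOXA2 and FOXA3 but no HNF1, HNF4 or C/EBP gene, so these values do not cover those factors. CREB3L3, a liver factor of the endoplasmic reticulum that activates acute-phase and lipid genes, gave 8.41 and 8.74 in HepG2 CM272, against 7.28 and 7.64 in HepG2 control (1.11, 0.67 to 1.56, adjusted p = 0.233). PPARA, the fatty acid receptor of fasting metabolism, followed at 6.28 and 6.45 against 5.73 and 5.78 in HepG2 control (0.61, 0.25 to 0.97, adjusted p = 0.305). In LX2, ATF5 gave 6.98 and 7.19 with CM272 against 6.55 and 6.30 in control (0.66, adjusted p = 0.0555), and PROX1 gave 5.39 and 5.76 against 5.08 and 4.87 in control (0.60, adjusted p = 0.0692). In control arrays 11 of the 14 were higher in HepG2 than in LX2 and 1 was lower, against 2379 and 5178 of all 14884 symbols.

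Other plasma proteins were measured for 39 of 74 listed genes. In HepG2 none passed (limma, unadjusted p under 0.05 for 12 higher genes and 1 lower gene, against 10.1% of all symbols in either direction). Their median was 0.22, the same as for the genes described above. Both CM272 arrays lay over both controls for 23 of 39 (59%), against 20.8% of all symbols, and under them for 3 (7.69%), against 25.4%. IGFBP1, the insulin-like growth factor carrier, gave 9.83 and 8.74 in HepG2 CM272, against 11.50 and 10.80 in HepG2 control (-1.87, -2.63 to -1.10, adjusted p = 0.233). CPB2, an inhibitor of fibrin breakdown, gave 8.35 and 8.85 against 7.26 and 7.88 in HepG2 control (1.03, 0.51 to 1.55, adjusted p = 0.296). In LX2 the median was 0.07, with an unadjusted limma p under 0.05 for 9 higher and 3 lower genes, against 21.8% of all symbols. Past the threshold were 4, against 5.11% of all symbols. C9, of the complement attack complex (1.38, SE 0.29, adjusted p = 0.0335), and SHBG, the sex steroid carrier (0.82, SE 0.18, adjusted p = 0.037), rose, while C5 (-0.77, SE 0.15, adjusted p = 0.0287) and PROS1, the protein C cofactor protein S (-0.77, SE 0.18, adjusted p = 0.0447), fell. C9 was dim, at 3.75 and 4.66 with CM272 against 3.08 and 2.56 in control.

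Genes for export and uptake of plasma proteins were checked as well. Of 36 listed secretory pathway genes, 16 were measured. In HepG2 none passed (limma, unadjusted p under 0.05 for 2 higher genes and 1 lower gene), with values of 0.60 (adjusted p = 0.311) for MTTP, which loads lipid onto APOB, and 0.56 (adjusted p = 0.402) for KDELR3, a receptor that returns proteins to the endoplasmic reticulum. In LX2, KDELR3 fell as the only one past the threshold (-1.04, SE 0.20, adjusted p = 0.0243). The LX2 median of these genes was -0.23, with an unadjusted p under 0.05 for 0 higher and 7 lower genes, and both CM272 arrays lay under both controls for 11 of 16 (68.8%), against 25.4% of all symbols. Of 16 listed receptors for plasma proteins, 9 were measured. In HepG2 none passed (limma, unadjusted p under 0.05 for 0 higher genes and 1 lower gene), with -0.41 (adjusted p = 0.467) for VLDLR, a lipoprotein receptor. CD163, the receptor for hemoglobin bound to haptoglobin, gave -0.32 (adjusted p = 0.794). It was dim, at 3.43 and 2.26 with CM272 against 3.04 and 3.30 in control. In LX2, CUBN, the cubilin that takes up albumin and APOA1 in kidney, rose (5.56 and 5.97 with CM272 against 4.32 and 4.17 in control, 1.52, SE 0.18, adjusted p = 0.00469).

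Some markers of other cell types passed in LX2 as well. Past the threshold in limma were 2 of 13 measured stellate markers (RELN, 3.93, and DES, 1.25), 1 of 5 leukocyte markers (CD14, 1.12), 1 of 6 endothelial markers (FLT1, 1.55), 1 of 4 cholangiocyte markers (KRT19, 0.67) and 1 of 5 hepatocyte enzymes (BAAT, 0.92), all higher with CM272. Over all symbols, 5.11% passed in LX2 in either direction. In HepG2 none of these lists had a gene past the threshold, against 0.0134% of all symbols. An unadjusted limma p under 0.05 was found for 1 leukocyte and 1 endothelial gene, both higher, against 10.1% of all symbols. On the log2 of the summed linear values, the hepatocyte enzymes lay at 7.13 to 7.27 on LX2 CM272 arrays against 6.88 to 7.04 on LX2 control arrays, and at 10.67 to 10.76 on HepG2 CM272 arrays against 10.69 to 10.75 on HepG2 control arrays. In LX2 the endothelial markers lay at 7.43 to 7.60 with CM272 against 6.78 to 6.90 in control, and the cholangiocyte markers at 9.44 to 9.82 against 9.01 to 9.13 in control. The leukocyte markers lay at 10.13 to 10.53 with CM272 against 10.28 to 10.30 in control, and the stellate markers overlapped too. Their part in the values of the plasma protein genes was not tested.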

How the data were processed

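Total RNA (300 ng per sample) of 8 cell line samples was labelled and hybridised, 1 array each. The deposited values are log2 expression values per probe set that the authors made with RMA, per the submitters' processing notes; its version, the array's genome build and whether the lines were normalized together are not given in the sources used here. RMA gives arrays a common distribution, so a shift shared by most genes would be removed in part, and it compresses differences of dim genes. Values were used as deposited. The platform annotation names 1 gene for 16098 of 48416 probe sets (33.2%), several for 0 and none for 32318. A symbol with more than 1 probe set (779 of 14884) was represented by its brightest on average, and no brightness filter was set, so 30 of the 33 plasma protein genes were tested.

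One limma 3.58.1 fit in R 4.3.3 over all 14884 symbols, with a mean per group (4 residual degrees of freedom, and 5.21 from the variance prior), gave two-sided tests of CM272 against control in each line, of the difference of these effects, and of HepG2 control against LX2 control. P-values were adjusted by Benjamini-Hochberg over all symbols, with a threshold of 0.05. An exact permutation test of 2 arrays against 2 cannot go below p = 0.333. Replicate numbers did not pair the arrays (r = 0.05 between same-numbered deviations in each line). The fit was tested on simulated data. Promoter windows came from RefSeq (GRCh38.p14) and were searched with Python 3.11.15, and figures were drawn with matplotlib 3.10.9.

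All measured members may be named, with array values for any past the threshold under CM272 and always for ALB, AFP, TTR, APOA1, TF, FGA, FGB, FGG, HP and C3; of other lists, up to 4 genes past the threshold, or else up to 2 with the largest difference. ASGR1, FAH, PCK1, VIM and RELN (line checks), STAT3 and HPR were named with their values known. The members and lists were chosen with earlier results of these data known.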

Additional observations from a re-analysis of the deposited data

Results flagged for a closer look

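Of the genes on the lists examined beside the plasma proteins, 3 showed a CM272 effect that differed between the lines by limma's test of the difference itself. For KDELR3 the effect was 1.60 log2 higher in HepG2 than in LX2 (adjusted p = 0.0476), with 0.56 in HepG2 and -1.04 in LX2. For CUBN it was -1.46 (adjusted p = 0.0476), with 0.06 in HepG2 and 1.52 in LX2. For RELN it was -3.65 (adjusted p = 5.68e-05), with 0.29 in HepG2, where control arrays were already at 11.03 and 11.12, and 3.93 in LX2. None of the 30 measured plasma protein genes passed this test.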

How the results depend on the processing

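Across the alternatives no plasma protein gene with a call turned direction. For CM272 against control, only HP and CFB had a call in any alternative. Several genes without a call changed sign in LX2, among them TTR (-0.25 to 0.47), APOC3 (-0.18 to 0.55) and ITIH1 (-0.25 to 0.47). Others kept theirs, such as HPX (0.35 to 0.75). Members called in LX2 numbered 0, against 1 with symbols over log2 4, 2 with symbols over 6, 2 with an intensity trend and 0 to 1 when an array was left out. In HepG2 they numbered 0, against 1 with symbols over 6 and 1 with an intensity trend. The LX2 median of 0.18 became 0.10 with equal array medians and 0.019 to 0.29 when an array was left out. The median of the difference of effects, 0.03, became 0.13 with quantile normalization over 8 arrays, 0.15 within each line, and -0.10 to 0.24 when an array was left out (both ends from the LX2 CM272 arrays). The median between control lines, 5.02, became 5.16 and 4.94 with quantile normalization over 8 arrays and within lines, and 5.24 with equal medians. With symbols over 4 and over 6 it became 5.39 and 5.90, over 29 and 27 genes. These filters select on the compared levels: both arrays exceeded 6 for 26 members in HepG2 control and for 2 in LX2 control. Members were thus kept mostly through their HepG2 arrays, and the higher medians are no test of the difference between the control lines. The median of all symbols in that comparison moved from -0.21 to 0.00 under quantile normalization over 8 arrays. With the replicate block 0, 0, 0 and 29 members were called, and over all symbols 368 in LX2 and 4 in HepG2, against 760 and 2. Calls over all symbols ran from 34 to 1931 in LX2, 0 to 5 in HepG2 and 12 to 371 for the difference of effects, against 760, 2 and 79. The causes were not tested. Levels near a log2 value of 4 or below, most of the list in LX2, lie close to background, and 2 arrays a group limit the precision. The counts of genes without overlap under alternatives were added after the data were seen.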
